A study of Homo sapiens with 30 samples.

Results

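RAB proteins are small GTPases that mark the membranes of the secretory and endocytic pathways. In the GTP-bound state they recruit effectors that move, tether or fuse vesicles, exchange factors load them with GTP, and GTPase-activating proteins switch them off. They are lipid-modified to sit on membranes, and epithelial cells use them to sort cargo to the apical and basolateral surfaces. The RAB genes were examined in T47D cells, a luminal breast cancer line, after depletion of negative elongation factor (NELF), a complex that holds RNA polymerase II near promoters. The members were every transcript cluster (the gene-level unit of the array) whose single platform symbol was RAB followed by digits and an optional letter. This gave 49 clusters of 48 genes out of 22011 clusters, since RAB36 had 2 clusters.

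There were 5 groups of 3 exon arrays, namely cells given siRNA against NELF-A (siNELF-A), NELF-B (siNELF-B), NELF-C (siNELF-C) or NELF-E (siNELF-E), and control cells given siRNA against luciferase. All cells received siRNA at 10 nM, fresh medium 48 hours later, and a further 48 hours of growth. The series text calls the 3 arrays technical repeats, so p-values measure only the spread between these arrays. The arrays measured bulk RNA, in which fewer cells of a type and less RNA per cell cannot be told apart.

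The 8 luminal markers had mean log2 levels from 6.78 (ESR1) to 12.4 (KRT8), the 5 measured basal and mesenchymal markers from 1.75 (ZEB1) to 5.29 (KRT14), and the 6 leukocyte and endothelial markers from 1.46 (PTPRC) to 4.09 (CD14). Of these, ESR1 was called lower in all 4 knockdowns, FOXA1 in siNELF-A cells, and FN1 in siNELF-A and siNELF-E cells, and their part in the RAB results was not tested. Of the targets, NELFCD had a log2 change of -3.71 in siNELF-C cells (adjusted p = 9.45e-06) and NELFE of -2.61 in siNELF-E cells (adjusted p = 2.49e-05, limma on the median of each gene's probe sets). NELFA changed by -0.61 in siNELF-A cells, which did not pass (adjusted p = 0.176), and NELFB was not analysed here. The siNELF-B label was thus not checked against its target, and each siNELF-B value below is that of the arrays so labelled. The siNELF-B arrays stood apart: correlations within that group were 0.917 to 0.973, against 0.984 to 0.99 within the other groups. SiNELF-B replicate 2 correlated at 0.985 with the controls and at 0.945 with its own group. Since all groups share one estimate of spread, counts are also given without siNELF-B replicates 2 and 3, where siNELF-B is a single array assumed to vary like the other groups.

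Of the 49 RAB clusters, 38 had a mean log2 level at or above 3.901, the 40th percentile of all clusters, and 19 lay above the upper quartile of 6.48. The 11 clusters below that percentile were both of RAB36 and those of RAB3B, RAB3C, RAB28, RAB33A, RAB37, RAB39A, RAB39B, RAB42 and RAB44. No background signal was measured here, so no fold is given for these 11. Calls rest on limma, with p-values adjusted by Benjamini-Hochberg across every cluster on the array. A called cluster had an adjusted p below 0.05 and differed 1.5-fold or more.

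With the deposited values, 2 to 5 of the 49 RAB clusters were called against control in each knockdown, and most of these were lower, as were most called clusters of the whole array. The direction depended on scaling: with arrays centred on their 75th percentiles, siNELF-C cells had 7 RAB clusters higher and 1 lower, and siNELF-E cells 9 higher and 1 lower. That centring also raised the median change of all clusters, and the shares of all clusters called higher are given with it below. Without siNELF-B replicates 2 and 3, more RAB clusters were called higher than lower in siNELF-E cells. That fit is given below with the share of all clusters called in either direction. In siNELF-A cells 2 of 49 clusters were called, both lower (RAB11B and RAB38), against 3.32% of all clusters in either direction and 2.83% lower. In siNELF-B cells 5 were called, all lower (RAB10, RAB21, RAB27A, RAB34 and RAB38), where 4.39% of all clusters were called and 4.19% were lower. SiNELF-C cells had 3 lower members (RAB22A, RAB27A and RAB38), with 6.22% of all clusters called and 5.3% lower. SiNELF-E cells had 1 higher member (RAB26) and 2 lower (RAB27A and RAB34), with 5.48% of all clusters called, 1.44% higher and 4.04% lower. Across the 4 comparisons, which share the control arrays, 8 of the 49 clusters (16.3%) were called at least once, against 12.9% of all clusters, so the RAB share was near the background.

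No RAB cluster was called in the same direction in all 4 knockdowns, where 0.495% of all clusters were. At an unadjusted p below 0.05, 2 RAB clusters met that rule. In siNELF-A, -B and -C cells, limma called no member higher, with 0.495%, 0.204% and 0.922% of all clusters called higher, and 2, 0 and 3 members were higher at an unadjusted p below 0.05. In the average of the 4 knockdowns 3 members were called, RAB26 higher and RAB27A and RAB38 lower, with 4.81% of all clusters called, 0.35% higher and 4.46% lower. These small counts moved with single arrays: the siNELF-A count was 0 without siNELF-A replicate 2 or 3 or control replicate 1 or 3, 1 without siNELF-A replicate 1 or control replicate 2, 5 without siNELF-B replicate 2 and 7 without its replicate 3. The siNELF-B count was 27 without siNELF-B replicate 2 and 1 to 3 without any other single array. The siNELF-C count was 0 or 1 without any 1 siNELF-C or control array, and 6 and 7 without siNELF-B replicate 2 and 3. The siNELF-E count was 8 without siNELF-B replicate 2 or 3, and the average count 12 without siNELF-B replicate 2 and 1 without control replicate 3. In the average contrast the share of all clusters called also rose without siNELF-B replicate 2 or 3. It fell without control replicate 3 (shares given below with the regulators). Shares for the other fits are not given here, so these counts are not read as particular to RAB genes. RAB27A was called in all 4 without siNELF-B replicate 2. There were 30 clusters called in no comparison, the 6 between knockdowns included.

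**Figure D1:**
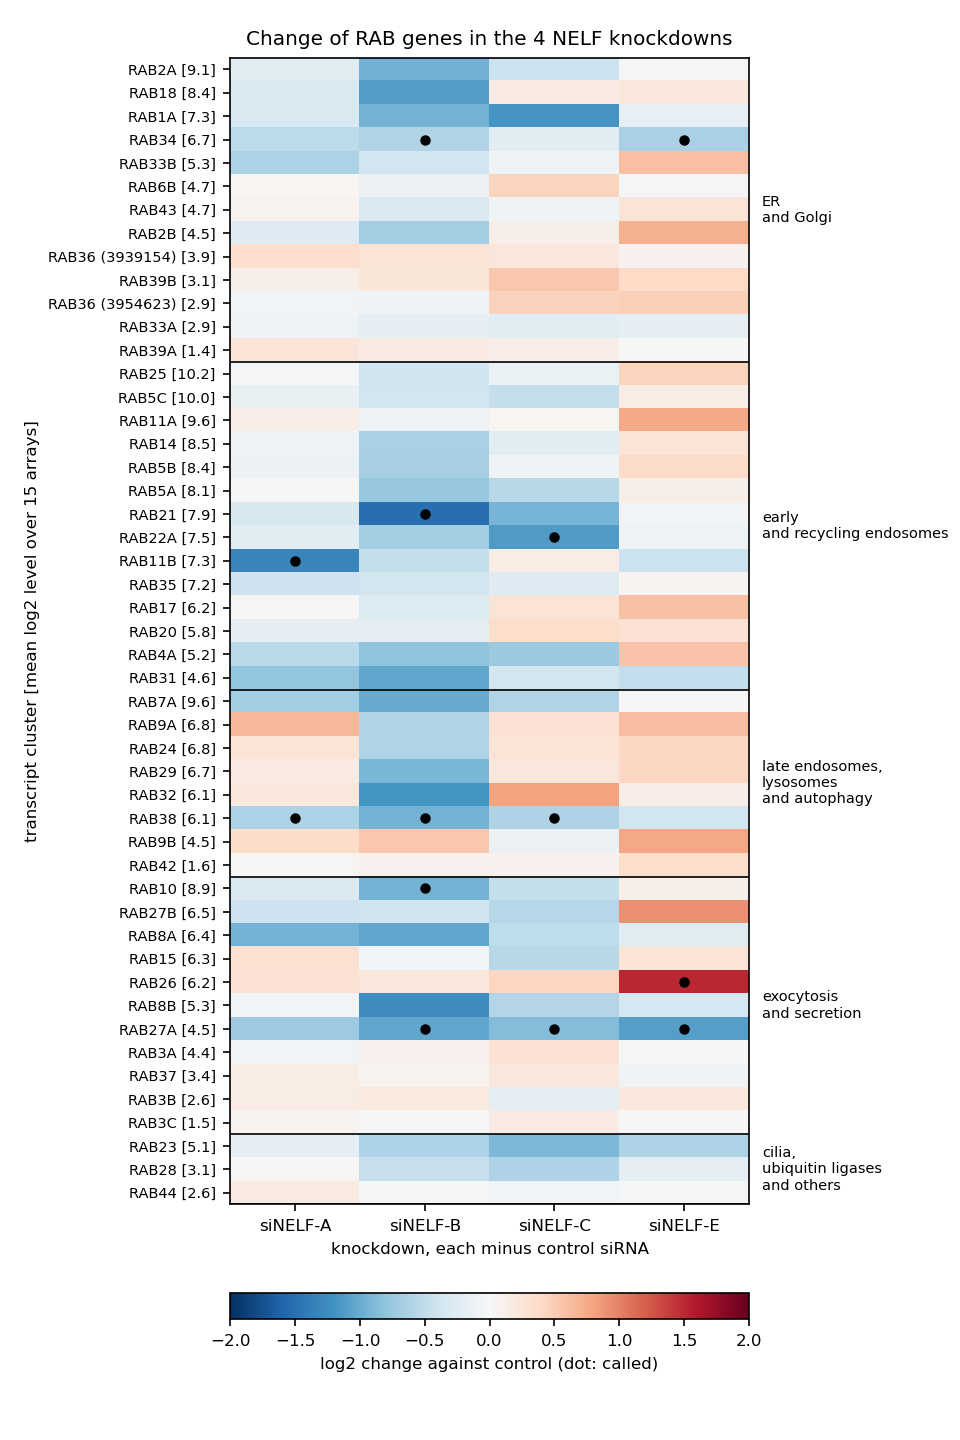
Log2 change of each of the 49 RAB clusters in the 4 knockdowns against control, colour-coded from blue (lower) to red (higher), with a dot on called values. Rows are grouped by membrane role and ordered by mean log2 level, given in brackets. The siNELF-B column is blue for 40 of the 49 clusters, and the RAB26 cell in the siNELF-E column, at 1.51, is the only called red one.

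The promoter sequences of 3 called genes are given because their clusters were called lower in different knockdowns. These were siNELF-A for RAB11B, siNELF-C for RAB22A, and siNELF-B, -C and -E for RAB27A. A call in 1 knockdown and not in another is no test of their difference. RAB27A was lower on average in every knockdown, and members called between knockdowns are given below. Each sequence is the 250 bases before the annotated start in RefSeq (GRCh38.p14), read 5′ to 3′ on the gene's strand. Capitals mark GC boxes (GGGCGG or CCGCCC) and CCAAT boxes (CCAAT or ATTGG), counted on both strands with overlapping matches kept. TATA boxes (TATAAA or TTTATA) were also searched.
RAB27A, chr15:55319124-55319373, minus strand, the 5′-most of its 5 windows: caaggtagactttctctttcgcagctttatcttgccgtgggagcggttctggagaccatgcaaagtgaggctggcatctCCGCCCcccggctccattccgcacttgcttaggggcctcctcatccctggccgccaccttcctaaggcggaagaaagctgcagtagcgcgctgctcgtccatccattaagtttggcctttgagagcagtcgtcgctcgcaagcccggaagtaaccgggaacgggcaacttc
RAB11B, chr19:8390110-8390359, plus strand: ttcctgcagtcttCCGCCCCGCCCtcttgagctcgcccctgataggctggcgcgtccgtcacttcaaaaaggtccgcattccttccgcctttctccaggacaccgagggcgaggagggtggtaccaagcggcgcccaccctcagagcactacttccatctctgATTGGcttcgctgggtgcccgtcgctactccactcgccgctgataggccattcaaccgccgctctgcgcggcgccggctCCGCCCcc
RAB22A, chr20:58309465-58309714, plus strand: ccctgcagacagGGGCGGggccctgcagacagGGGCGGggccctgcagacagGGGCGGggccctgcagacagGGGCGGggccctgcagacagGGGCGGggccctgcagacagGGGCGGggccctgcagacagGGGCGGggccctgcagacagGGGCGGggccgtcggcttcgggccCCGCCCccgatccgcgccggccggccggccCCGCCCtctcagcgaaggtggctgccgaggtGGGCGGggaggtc
The RAB27A window shown held 1 GC box and neither of the other motifs. Of its other 4 windows, 2 held TATA boxes (1 and 2 matches), 1 held 2 CCAAT boxes and 1 held 2 GC boxes. The RAB11B window held 3 GC boxes and 1 CCAAT box. The RAB22A window held 11 GC boxes, most of them in a tandem repeat, and was 80.8% G and C. RefSeq windows matched 36 of the 48 RAB genes, 50 windows in all, of which 80% held a GC box, 20% a CCAAT box and 4% a TATA box, the last being the 2 windows of RAB27A. Over all 35116 windows of that length these shares were 42.6%, 32% and 10.7%. The median G and C content was 64.8% in RAB windows and 58% in all windows, and its part in the GC box shares was not tested. Genes with several windows, such as RAB27A with 5, count more than once. A match is a description of the letters and does not mark a site in use.

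Among the RAB genes of exocytosis and secretion, 8 of 11 clusters lay above the 40th percentile, and RAB26, RAB27A and RAB10 were called. RAB26 (transcript cluster 3644510) encodes a RAB of secretory granules. It measured 6.04, 6.04 and 5.97 on the siNELF-A arrays, 5.91, 6.07 and 5.88 on the siNELF-B arrays, 6.28, 6.12 and 6.09 on the siNELF-C arrays, 7.36, 7.21 and 7.14 on the siNELF-E arrays, and 5.88, 5.69 and 5.61 on the control arrays (log2). The 3 siNELF-E arrays were the highest of the 15 and overlapped no other group. RAB26 rose 2.85-fold in siNELF-E cells (a log2 change of 1.51, SE 0.118, adjusted p = 1.03e-05, limma). It was called under all 25 alternative settings, with adjusted p between 1.11e-06 and 0.00061. The log2 changes in siNELF-A, -B and -C cells were 0.29, 0.23 and 0.44. None was called, although siNELF-C passed on p alone (adjusted p = 0.0439). The call in the average contrast (log2 change 0.62, adjusted p = 0.0027) was lost on size without control replicate 3, where the change was 0.56 (adjusted p = 0.0369).

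RAB27A (transcript cluster 3625271), known for the docking of melanosomes, lytic granules and exosome-bearing endosomes, was lower on average in every knockdown. It measured 4.73, 4.53 and 4.44 on the siNELF-A arrays, 3.89, 4.88 and 3.96 on the siNELF-B arrays, 4.28, 4.49 and 4.47 on the siNELF-C arrays, 4.25, 4.06 and 4.25 on the siNELF-E arrays, and 5.17, 5.24 and 5.46 on the control arrays. All 12 knockdown arrays lay below the 3 control arrays, with siNELF-B replicate 2 closest to them. RAB27A fell 2.06-fold in siNELF-B cells (a log2 change of -1.04, SE 0.217, adjusted p = 0.027), 1.83-fold in siNELF-C cells (-0.87, adjusted p = 0.0313) and 2.15-fold in siNELF-E cells (-1.11, adjusted p = 0.00837, limma). The change of -0.72 in siNELF-A cells did not pass (adjusted p = 0.0952). Without siNELF-B replicates 2 and 3, RAB27A was called in all 4 knockdowns, with -0.72 in siNELF-A cells at an adjusted p of 0.00206. The siNELF-B, -C and -E calls were all lost when the gene was measured as the median of its probe sets. Its changes were then -1.69, -1.51 and -1.57 (adjusted p = 0.0545, 0.0694 and 0.0734, limma). With a term for replicate number, the siNELF-C call was also lost (adjusted p = 0.0537). The siNELF-B and siNELF-C calls were lost without any 1 control array, and the siNELF-B call also without siNELF-B replicate 1 or 3 and the siNELF-C call without any 1 siNELF-C array (highest adjusted p 0.123 and 0.134). Both also depended on scaling: with 75th-percentile centring the changes were -0.58 in siNELF-B and -0.53 in siNELF-C cells (adjusted p = 0.0592 and 0.0597), and with a covariate for array interquartile range -0.60 and -0.55 (adjusted p = 0.191 and 0.079), none of them called. The average change of -0.94 (adjusted p = 0.00726) was not called without control replicate 3 (adjusted p = 0.0743).

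Its paralog RAB27B, which acts in the same secretory steps, did not share this direction in siNELF-E cells. RAB27B measured 5.93, 6.20 and 6.27 on the siNELF-A arrays, 6.16, 6.93 and 5.35 on the siNELF-B arrays, 6.14, 5.73 and 6.09 on the siNELF-C arrays, 7.62, 7.45 and 7.36 on the siNELF-E arrays, and 6.54, 6.39 and 6.72 on the control arrays. The siNELF-E arrays were the highest of the 15, and only siNELF-B overlapped the controls. Against control its log2 changes were -0.42, -0.40, -0.57 and 0.92 in siNELF-A, -B, -C and -E cells, and none passed (adjusted p = 0.0971 in siNELF-E). Without siNELF-B replicates 2 and 3 the siNELF-E change of RAB27B, 0.92, was called (adjusted p = 0.00122).

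RAB10, which carries basolateral and GLUT4-bearing vesicles, measured 8.96, 9.15 and 8.82 on the siNELF-A arrays, 8.20, 9.01 and 7.73 on the siNELF-B arrays, 8.87, 8.69 and 8.79 on the siNELF-C arrays, 9.20, 9.38 and 9.54 on the siNELF-E arrays, and 9.15, 9.32 and 9.32 on the control arrays. The siNELF-B arrays were all below the controls but spread over more than a log2 unit. RAB10 fell 1.93-fold in siNELF-B cells (a log2 change of -0.95, SE 0.245, adjusted p = 0.0472, limma). That call held in 1 of the 15 fits that left out 1 array, the one without siNELF-B replicate 2, and was otherwise lost at adjusted p of 0.0566 to 0.163. The RAB10 change was also smaller under other scalings and not called, at -0.51 with quantile normalization, -0.48 with 75th-percentile centring and -0.31 with a covariate for array interquartile range (adjusted p = 0.0467, 0.0627 and 0.353).

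Of the 14 clusters of the early and recycling endosomes, all above the 40th percentile, RAB11B, RAB22A and RAB21 were called, each in 1 knockdown. RAB11B (transcript cluster 3819505), a RAB of recycling endosomes, measured 6.86, 6.31 and 6.11 on the siNELF-A arrays, 7.35, 7.87 and 6.59 on the siNELF-B arrays, 7.93, 7.85 and 7.93 on the siNELF-C arrays, 7.27, 7.38 and 7.35 on the siNELF-E arrays, and 7.83, 7.52 and 7.92 on the control arrays. SiNELF-A replicates 2 and 3 were the 2 lowest arrays, and no siNELF-A array reached the controls. RAB11B fell 2.51-fold in siNELF-A cells (a log2 change of -1.33, SE 0.268, adjusted p = 0.0169, limma). The call was lost without siNELF-A replicate 2 or 3 or control replicate 1 or 3 (adjusted p = 0.0677 to 0.0885), where the change was still at least 1.17 log2 units below control. Its changes in the other knockdowns, -0.48 with siNELF-B, 0.15 with siNELF-C and -0.42 with siNELF-E, did not pass.

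RAB11A, the close relative of RAB11B on the same endosomes, measured 9.71, 9.46 and 9.57 on the siNELF-A arrays, 9.41, 10.07 and 8.55 on the siNELF-B arrays, 9.53, 9.35 and 9.58 on the siNELF-C arrays, 10.25, 10.11 and 10.27 on the siNELF-E arrays, and 9.39, 9.43 and 9.53 on the control arrays. The siNELF-E arrays were the 3 highest of the 15. The siNELF-E change of 0.76 (SE 0.269) did not pass in the fit of all arrays (adjusted p = 0.142). Without siNELF-B replicates 2 and 3 it was called, with an SE of 0.103 and an adjusted p of 0.000436. RAB11A changed by 0.13 in siNELF-A cells, where RAB11B fell, and this did not pass.

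RAB22A (transcript cluster 3890870), which directs cargo through early endosomes, measured 7.61, 7.64 and 7.73 on the siNELF-A arrays, 7.35, 7.79 and 6.50 on the siNELF-B arrays, 6.83, 6.67 and 6.77 on the siNELF-C arrays, 7.72, 7.79 and 7.85 on the siNELF-E arrays, and 7.80, 7.86 and 8.01 on the control arrays. The siNELF-C arrays lay within 0.16 log2 units of each other and below all arrays except siNELF-B replicate 3. RAB22A fell 2.20-fold in siNELF-C cells (a log2 change of -1.14, SE 0.235, adjusted p = 0.0149, limma). The call was lost without siNELF-C replicate 2 or control replicate 3 (adjusted p = 0.0694 and 0.0734), where the change stayed beyond -1.07. RAB31, a relative of RAB22A picked after its value was seen, changed by -0.37 in siNELF-C cells, which did not pass (adjusted p = 0.542).

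RAB21, an endosomal RAB that traffics integrins, measured 8.37, 7.93 and 8.01 on the siNELF-A arrays, 6.82, 7.95 and 5.96 on the siNELF-B arrays, 7.60, 7.21 and 7.65 on the siNELF-C arrays, 8.25, 8.20 and 8.64 on the siNELF-E arrays, and 8.35, 8.29 and 8.62 on the control arrays. All siNELF-B and siNELF-C arrays lay below the controls. RAB21 fell 2.84-fold in siNELF-B cells (a log2 change of -1.51, SE 0.366, adjusted p = 0.0422), a call lost in 14 of the 15 fits without 1 array (all but the one without siNELF-B replicate 2, adjusted p 0.0523 to 0.156). With a covariate for array interquartile range its change was -0.51 and was not called (adjusted p = 0.239). In siNELF-C cells the change of -0.93 did not pass with all arrays (adjusted p = 0.138, limma). It was called in 2 of 10 other settings, the fit without siNELF-B replicates 2 and 3 among them. Of the 15 fits without 1 array, 2 called it.

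Among RAB genes of late endosomes, lysosomes and autophagy, 7 of 8 clusters lay above the 40th percentile, and RAB38 alone was called against control. RAB38 (transcript cluster 3385752) works with RAB32 in the making of melanosomes and other lysosome-related organelles. It measured 5.98, 5.91 and 5.98 on the siNELF-A arrays, 5.35, 5.86 and 5.72 on the siNELF-B arrays, 6.10, 6.03 and 5.80 on the siNELF-C arrays, 6.22, 6.27 and 6.17 on the siNELF-E arrays, and 6.73, 6.51 and 6.52 on the control arrays. All 12 knockdown arrays lay below the 3 control arrays. RAB38 fell 1.55-fold in siNELF-A cells (a log2 change of -0.63, adjusted p = 0.0285), 1.92-fold in siNELF-B cells (-0.94, SE 0.141, adjusted p = 0.00625) and 1.53-fold in siNELF-C cells (-0.61, adjusted p = 0.0232, limma). The change of -0.37 in siNELF-E cells did not pass (adjusted p = 0.184). These calls depended on scaling. With arrays quantile-normalized the changes were -0.40, -0.51 and -0.29 in siNELF-A, -B and -C cells, and none was called (adjusted p = 0.297, 0.141 and 0.386). The siNELF-A and siNELF-C calls were also lost without any 1 of their own arrays or of the control arrays (highest adjusted p 0.129 and 0.0913). The average change of -0.64 (adjusted p = 0.00565, limma) was no longer called when control replicate 1 was left out (adjusted p = 0.0551). It also depended on scaling. With quantile normalization, median centring and 75th-percentile centring it was -0.36, -0.49 and -0.35, and was not called (adjusted p = 0.202, 0.036 and 0.168).

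Of the 13 ER and Golgi clusters, 8 lay above the 40th percentile, and RAB34 was the only one called against control. RAB34 (transcript cluster 3751002), known for placing lysosomes near the Golgi and for early cilium assembly, measured 6.54, 6.74 and 6.52 on the siNELF-A arrays, 6.44, 6.79 and 6.34 on the siNELF-B arrays, 7.01, 6.83 and 6.90 on the siNELF-C arrays, 6.43, 6.54 and 6.48 on the siNELF-E arrays, and 7.19, 7.04 and 7.15 on the control arrays. Every knockdown array lay below every control array. RAB34 fell 1.56-fold in siNELF-E cells (a log2 change of -0.64, SE 0.132, adjusted p = 0.0109) and 1.52-fold in siNELF-B cells (-0.60, adjusted p = 0.0321, limma). The siNELF-A change of -0.53 passed on p (adjusted p = 0.0475) but not on size. Under quantile normalization neither call held, with changes of -0.50 in siNELF-E cells and -0.11 in siNELF-B cells. The siNELF-E call was also lost without siNELF-E replicate 1 or control replicate 1 or 3 (adjusted p = 0.0511 to 0.0529). The siNELF-B call was lost without siNELF-B replicate 1 or 3, siNELF-C replicate 3, or any 1 siNELF-E or control array (adjusted p = 0.0504 to 0.13).

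**Figure D2:**
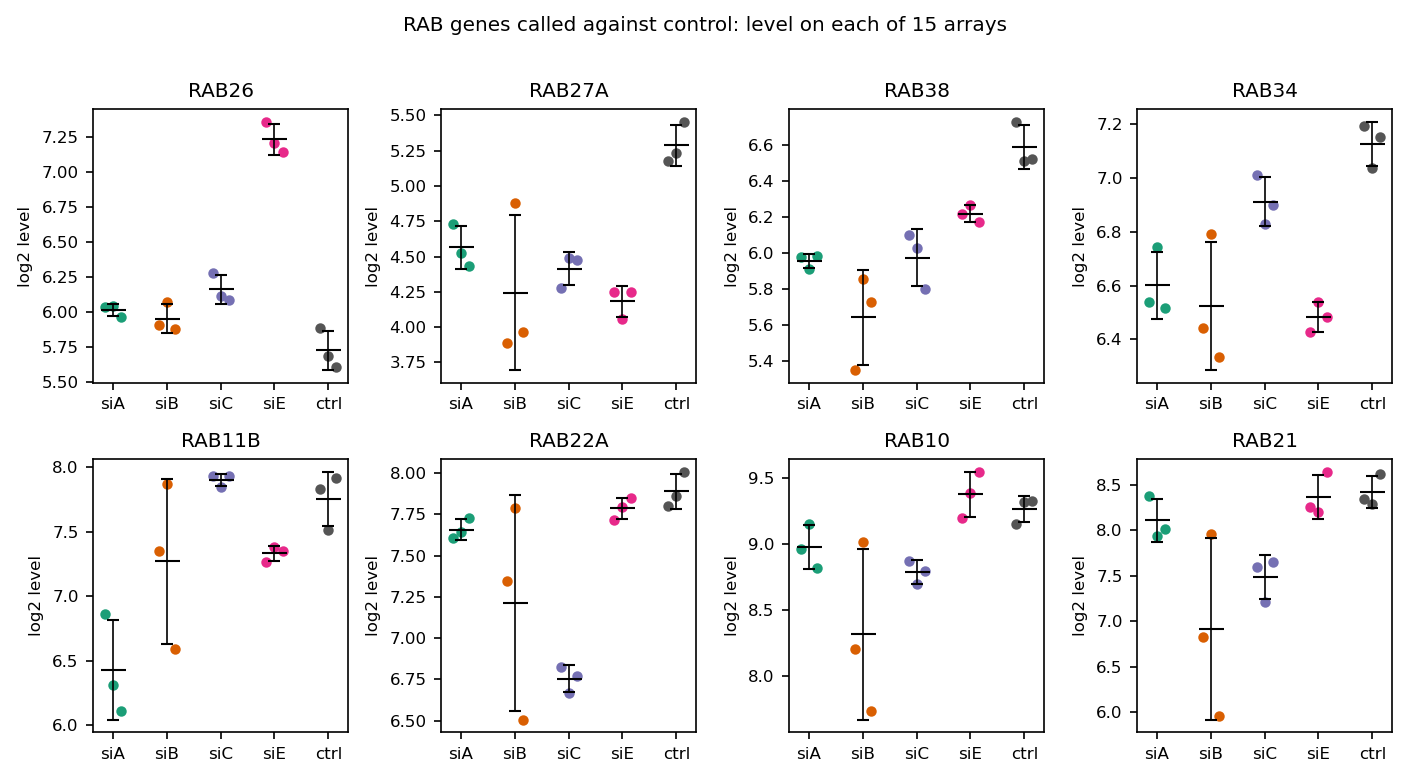
Log2 level on each of the 15 arrays for the 8 RAB genes called in at least 1 knockdown against control, with the mean and SD of the 3 arrays of each group. The 4 knockdowns stand left of the control (siA, siB, siC and siE for the 4 siRNAs, ctrl for control). RAB26 was at 7.14 to 7.36 on the siNELF-E arrays and at 5.61 to 5.88 on the control arrays, and the siNELF-B points spread most for RAB21.

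RAB1A, the RAB of ER-to-Golgi transport, was picked after its values were seen, because its siNELF-C arrays were so close together. It measured 7.59, 7.59 and 7.49 on the siNELF-A arrays, 7.17, 7.95 and 5.66 on the siNELF-B arrays, 6.70, 6.66 and 6.70 on the siNELF-C arrays, 7.41, 7.74 and 7.96 on the siNELF-E arrays, and 7.59, 7.94 and 8.07 on the control arrays. The siNELF-C arrays did not overlap the controls. The change of -1.18 in siNELF-C cells did not pass with all arrays (SE 0.406, adjusted p = 0.0974) and passed without siNELF-B replicates 2 and 3 (SE 0.15, adjusted p = 0.00029).

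The 4 RAB clusters with the highest mean log2 level were RAB25, RAB5C, RAB11A and RAB7A, and none was called against control. RAB25, an epithelial member of the RAB11 group, had mean log2 levels of 10.14, 9.79, 10.05 and 10.63 in siNELF-A, -B, -C and -E cells, and of 10.18 in control cells. Its siNELF-E change of 0.45 did not pass (adjusted p = 0.406), although the siNELF-E arrays (10.59 to 10.68) did not overlap the controls (10.13 to 10.22). RAB5C, a RAB of early endosomes, had changes of -0.15, -0.37, -0.47 and 0.15 in the same order of knockdowns. RAB7A, which governs fusion of late endosomes with lysosomes, changed by -0.68, -1.01, -0.60 and -0.01, with adjusted p of 0.225, 0.0541, 0.196 and 0.991. Its siNELF-A, siNELF-B and siNELF-C arrays all lay below the controls. The 3 clusters outside these roles, of genes tied to cilia, ubiquitin ligases and other functions, included 1 above the 40th percentile, and none of them was called against control.

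Without siNELF-B replicates 2 and 3, more RAB clusters were called in each comparison, as were more clusters overall. There were 8 in siNELF-A cells (1 higher and 7 lower, with 10.3% of all clusters called), 16 in siNELF-B cells (all lower, 19.2%), 9 in siNELF-C cells (1 higher and 8 lower, 17.1%) and 10 in siNELF-E cells (7 higher and 3 lower, 10.7%). Those higher in siNELF-E cells were RAB2B, RAB9A, RAB11A, RAB17, RAB26, RAB27B and RAB33B, with log2 changes of 0.59 to 1.51. The share of all clusters called higher in that fit is not given here. Their number is thus not read as particular to RAB genes. RAB17, which serves epithelial transcytosis and was picked after its values were seen, measured 6.58, 6.59 and 6.85 on the siNELF-E arrays and 6.16, 5.94 and 6.13 on the control arrays. With all 15 arrays its change of 0.59 had an adjusted p of 0.0813. Each change of these 7 genes, picked because it was called higher, was above 0 in siNELF-E cells against control in every setting tried. Settings that only left out arrays of other groups could not alter it.

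The split between higher and lower calls moved with scaling. With the deposited values, the median change of all clusters was -0.03, -0.14, -0.08 and -0.02 in siNELF-A, -B, -C and -E cells. Centring each array on its 75th percentile moved these medians to 0.19, 0.32, 0.27 and 0.11, and quantile normalization to 0.05, 0.04, 0.05 and 0.05. SiNELF-E cells then had 9 RAB clusters higher and 1 lower with 75th-percentile centring, and 7 higher and 1 lower with quantile normalization, where 3.41% and 3.07% of all clusters were called higher. SiNELF-C cells had 7 higher and 1 lower, and 6 higher and 2 lower, under the same settings (3.6% and 2.51% of all clusters called higher), against 0 higher and 3 lower with the deposited values. RAB22A was lower in siNELF-C cells and RAB26 higher in siNELF-E cells under both. Over all clusters, the share of called clusters that were higher in siNELF-C cells was 14.8% with the deposited values, 48% with 75th-percentile centring and 35.3% with quantile normalization.

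Taken array by array, the median change of the 38 brighter RAB clusters from their control means was 0.164, 0.113 and 0.291 on the siNELF-E arrays. Over all 13207 clusters above the 40th percentile, the same arrays gave -0.078, -0.077 and -0.031. On the siNELF-B arrays the RAB median was -0.617, 0.008 and -1.293, and that of all brighter clusters -0.37, -0.003 and -0.797. SiNELF-A arrays gave RAB medians of -0.057, -0.122 and -0.348, siNELF-C arrays of -0.161, -0.33 and -0.254, and control arrays of 0.001, -0.053 and 0.08. The interquartile range of log2 values was 3.57, 4.02 and 3.12 on the siNELF-B arrays, 3.89 to 4.01 on the siNELF-E arrays and 3.95 to 4.12 on the control arrays. The part of the interquartile range in the RAB medians was not tested. With the interquartile range as a covariate, siNELF-B cells had 1 RAB cluster called, RAB38. In the other knockdowns the counts were higher in that fit than with the deposited values alone, and they are given in the closing section.

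**Figure D3:**
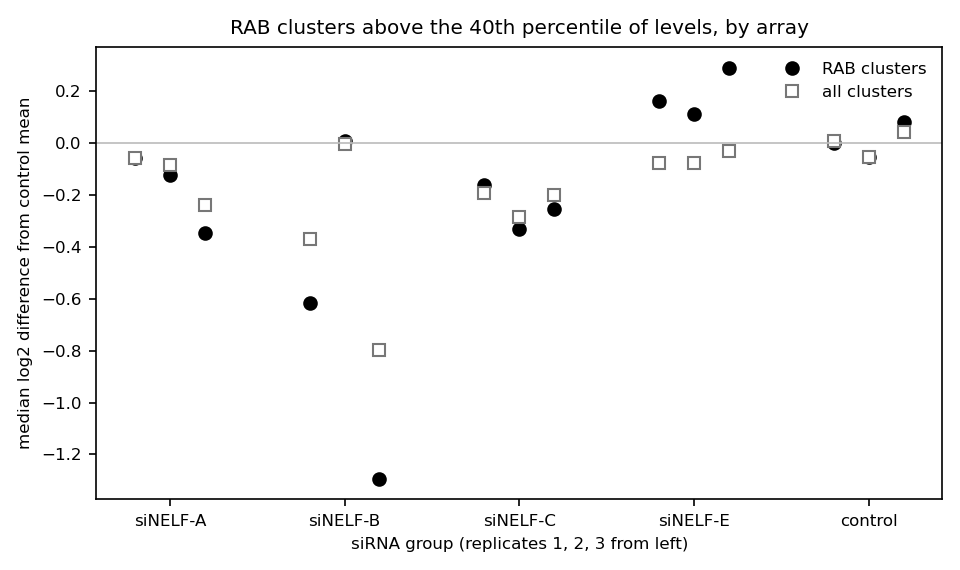
Median log2 difference from the control mean over the 38 brighter RAB clusters (filled circles) and over all 13207 brighter clusters (open squares), for each array, with replicates 1 to 3 from left to right in each group. The siNELF-E circles lie at 0.113 to 0.291, above the squares, and siNELF-B replicate 3 lies lowest at -1.293.

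Between knockdowns, RAB genes differed most often where siNELF-E was one side, and every called member was higher in siNELF-E cells. Against siNELF-C, 6 of 49 clusters (12.2%) were called, with 5.18% of all clusters called and 3.59% higher. Against siNELF-B, 12 clusters (24.5%) were called, with 6.9% of all clusters called and 5.74% higher. Against siNELF-A 3 clusters were called, RAB26, RAB27B and RAB33B, with 4.05% of all clusters called and 2.56% higher. None was lower, where 1.59%, 1.16% and 1.49% of all clusters were lower than in siNELF-C, -B and -A cells. At an unadjusted p below 0.05, 2, 0 and 0 members were lower in siNELF-E cells in those comparisons (limma). When clusters below the 40th percentile were left out, 7, 16 and 5 of the 38 remaining members were called in these 3 comparisons, and 9.07%, 14.7% and 6.94% of all clusters that remained. With only siNELF-E and siNELF-B fitted, no cluster of any kind was called, and 17 RAB clusters had an unadjusted p below 0.05.

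RAB26 was called in each of the 3 comparisons. Its log2 differences were 1.07 between siNELF-E and siNELF-C cells (SE 0.118, adjusted p = 0.000253), 1.28 between siNELF-E and siNELF-B cells (adjusted p = 0.000185) and 1.22 between siNELF-E and siNELF-A cells (adjusted p = 0.000108, limma). RAB27B was higher in siNELF-E cells by 1.49 than in siNELF-C cells (SE 0.293, adjusted p = 0.0102), by 1.33 than in siNELF-B cells (adjusted p = 0.0192) and by 1.34 than in siNELF-A cells (adjusted p = 0.0201). The first of these was lost without siNELF-C replicate 2 (adjusted p = 0.0571), and the third without any 1 siNELF-E or siNELF-A array (highest adjusted p 0.0863). The second was lost without siNELF-B replicate 1 or any 1 siNELF-E array (highest adjusted p 0.0722).

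RAB33B, a Golgi RAB that binds the autophagy protein ATG16L1, measured 5.99, 6.06 and 6.08 on the siNELF-E arrays, 5.38, 5.23 and 5.42 on the siNELF-C arrays, 5.23, 5.14 and 4.78 on the siNELF-B arrays, 4.83, 5.08 and 4.48 on the siNELF-A arrays, and 5.46, 5.15 and 5.70 on the control arrays. The siNELF-E arrays were above all 12 others. RAB33B was 2.37-fold higher in siNELF-E than in siNELF-A cells (log2 difference 1.25, SE 0.18, adjusted p = 0.00177, limma), a call that held in all 25 alternatives. The differences from siNELF-B (0.99, adjusted p = 0.00784) and siNELF-C cells (0.70, adjusted p = 0.0414) were also called, while those from control, 0.61 in siNELF-E and -0.64 in siNELF-A cells, were not (adjusted p = 0.0727 and 0.0777). The siNELF-C difference was lost without any 1 siNELF-E or siNELF-C array, or without replicate 1 of siNELF-A, siNELF-B or control (highest adjusted p 0.155). It also depended on scaling. It was not called with quantile normalization (0.55), 75th-percentile centring (0.48) or a covariate for array interquartile range (0.54).

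RAB4A, which drives fast recycling from early endosomes, measured 6.06, 5.67 and 6.38 on the siNELF-E arrays, 4.83, 4.39 and 4.90 on the siNELF-C arrays, 4.63, 5.30 and 4.002 on the siNELF-B arrays, 5.10, 5.04 and 4.59 on the siNELF-A arrays, and 5.31, 5.26 and 5.80 on the control arrays. SiNELF-E arrays overlapped only the control arrays. RAB4A was 2.51-fold higher in siNELF-E than in siNELF-C cells (log2 difference 1.33, SE 0.301, adjusted p = 0.023) and 2.62-fold higher than in siNELF-B cells (1.39, adjusted p = 0.0175, limma). Both calls were lost without siNELF-E replicate 1 or 3, the first also without any 1 siNELF-C array and the second without siNELF-B replicate 1 (adjusted p up to 0.114 and 0.0824). RAB22A was 2.04-fold higher in siNELF-E than in siNELF-C cells (1.03, adjusted p = 0.0232), and RAB5C 1.54-fold higher (0.62, adjusted p = 0.0358). The RAB22A call was lost without any 1 array of either group and the RAB5C call in 10 of 15 fits without 1 array, at adjusted p up to 0.0957 and 0.131. The RAB5C difference was also not called with quantile normalization (0.56), median centring (0.58), 75th-percentile centring (0.40) or an interquartile range covariate (0.50). Among the other siNELF-B differences, those of RAB7A and RAB29 were lost in 13 and 12 of the 15 fits, RAB21 and RAB9A in 5 each, RAB10 in 4 and RAB17 in 2, while RAB24 and RAB2B kept theirs in all 15. With an interquartile range covariate, RAB7A, RAB29, RAB9A, RAB10 and RAB17 differed by 0.42, 0.67, 0.56, 0.54 and 0.54. None of these was called, while RAB21, RAB24 and RAB2B kept their calls. RAB17 was also not called with quantile normalization (0.56) or 75th-percentile centring (0.53).

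**Figure D4:**
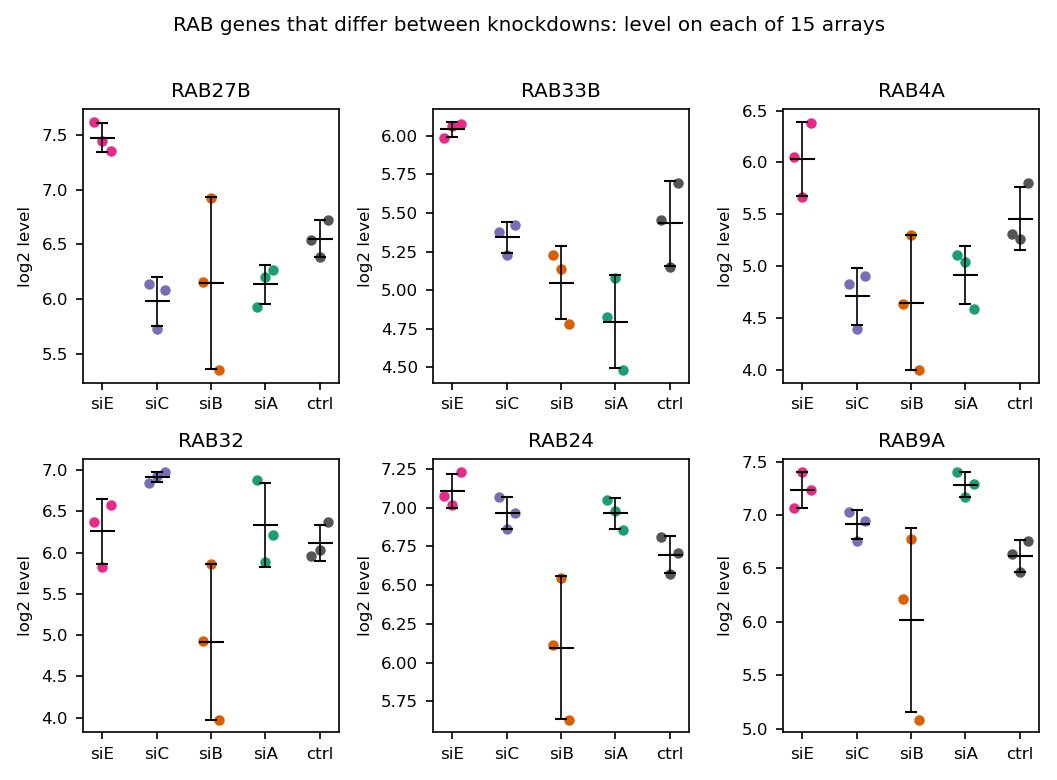
Log2 level on each array for 6 RAB genes called between knockdowns but in no knockdown against control, with mean and SD; groups run siNELF-E, siNELF-C, siNELF-B, siNELF-A and control from the left. RAB27B and RAB33B are highest on the siNELF-E arrays (7.36 to 7.62 and 5.99 to 6.08), and RAB32, RAB24 and RAB9A are lowest on siNELF-B replicate 3.

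Pairs without siNELF-E gave few calls. RAB11B was 2.78-fold higher in siNELF-C than in siNELF-A cells (log2 difference 1.47, SE 0.268, adjusted p = 0.0108), the only RAB called there, with 2.87% of all clusters called, 1.21% higher and 1.66% lower. No member was lower there, and 2 were at an unadjusted p below 0.05. That call was lost without siNELF-C replicate 1 or siNELF-A replicate 2 (adjusted p up to 0.0571). RAB24, an autophagy-linked RAB, and RAB9A, which returns receptors from late endosomes to the Golgi, were lower in siNELF-B than in siNELF-A cells by 0.87 and 1.26 log2 units (adjusted p = 0.0235 and 0.0375), where 4.28% of all clusters were called, 0.818% higher and 3.46% lower. RAB24 and RAB32 were higher in siNELF-C than in siNELF-B cells by 0.87 and 1.998 log2 units (adjusted p = 0.031 and 0.0191), where 2.14% of all clusters were called, 1.6% higher and 0.536% lower. In each of these 2 comparisons with siNELF-B, 1 member went the other way at an unadjusted p below 0.05 and none was called (limma). Leaving out 1 array ended the RAB9A call in 13 of 15 fits, and each of the other 3 calls without siNELF-B replicate 1 and some others (adjusted p up to 0.0934 for RAB24 against siNELF-A, 0.142 for RAB24 in siNELF-C and 0.0803 for RAB32). With only the 2 groups of each pair fitted, neither comparison with siNELF-B called a RAB cluster, and 4 RAB clusters in each had an unadjusted p below 0.05. Without siNELF-B replicate 1, 9 of the 49 clusters were called in at least 1 of the 6 pairs, and without siNELF-B replicate 2 there were 35, against 16 (32.7%) with all arrays and 14.1% of all clusters. Leaving out siNELF-C replicate 1 or 3 gave 10, and leaving out siNELF-E replicate 1, 2 or 3 gave 8, 9 and 7. Shares of all clusters called in these fits without 1 array are not given here, so the counts are not read as particular to RAB genes.

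The exon-level table held 508 probe sets for 46 of the 48 RAB genes, of which 443 were above the 25th percentile of probe set means. The genes below were picked because their clusters were called. Both levels were measured on the same arrays, so their probe sets are not independent support for those calls. For RAB26, 16 probe sets were above the 25th percentile. In siNELF-E cells all 16 were higher than in control, by 0.14 to 2.84 log2 units with a median of 1.35, and 6 were called, where 0.279% of all probe sets above that percentile were called higher (limma over all probe sets). The RAB26 medians in siNELF-A, -B and -C cells were 0.31, 0.33 and 0.49. RAB27A had 9 such probe sets, of which 7, 8, 7 and 8 were lower than control in siNELF-A, -B, -C and -E cells. Their median changes were -0.83, -1.46, -1.05 and -1.49, and 1 probe set was called lower in siNELF-B and 1 in siNELF-E cells, with 0.187% and 1.72% of all such probe sets called lower. All 4 probe sets of RAB11B were lower in siNELF-A cells, by 0.55 to 1.71 log2 units. Measured as the median of its probe sets on each array, RAB11B changed by -1.22 there and was not called (adjusted p = 0.0976, limma). RAB22A had 11 of 14 probe sets lower in siNELF-C cells (median -1.01), with 3 called lower, beside 1.21% of all such probe sets. As the median of its probe sets on each array, RAB22A changed by -0.92 in siNELF-C cells and was not called (adjusted p = 0.0646, limma).

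**Figure D5:**
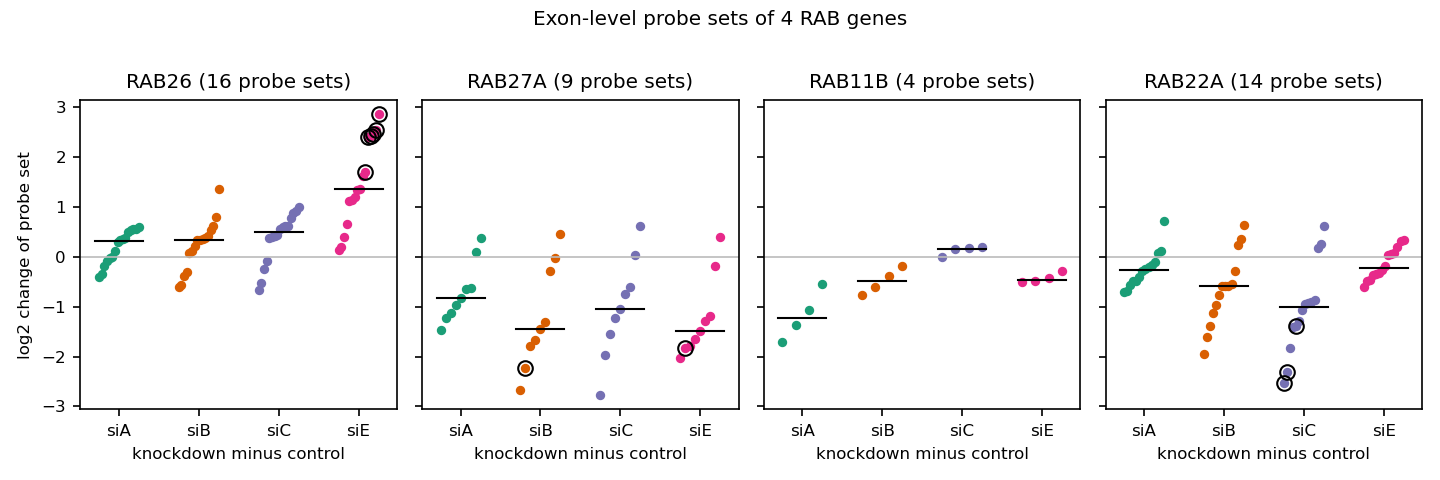
Log2 change against control of each probe set of RAB26, RAB27A, RAB11B and RAB22A in the 4 knockdowns, ordered within a knockdown by size, with the median as a line and called probe sets ringed. All 16 RAB26 probe sets lie above 0 in siNELF-E cells (median 1.35), and 11 of 14 RAB22A probe sets lie below 0 in siNELF-C cells. The genes were picked because their clusters were called on the same arrays.

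Exon usage (how far each probe set departs from the rest of its gene) was tested for 44 RAB genes. A usage change was called in 3 (6.82%), all in siNELF-B cells, against 12.5% of all genes in at least 1 knockdown and 7.48% in siNELF-B cells. They were RAB8A, a RAB of polarized secretion, with 1 probe set up by 2.15 and 1 down by 2.22 log2 units relative to the rest of the gene (adjusted p = 0.0419 and 0.0325), RAB38 with 1 probe set up by 2.06 (adjusted p = 0.0226), and RAB34 with 1 up by 1.53 (adjusted p = 0.0485, limma's diffSplice). For the RAB8A probe set that was lower, the siNELF-B arrays ranged from 1.21 to 6.70 with a median of 3.28, and the control arrays from 6.75 to 7.17 with a median of 6.90. These did not overlap, but the siNELF-B arrays were far apart. The other 3 called probe sets overlapped the controls, at 4.996 to 7.24 on siNELF-B arrays and 4.91 to 5.74 on control arrays for RAB8A, 5.22 to 6.75 and 4.66 to 5.88 for RAB38, and 6.09 to 7.12 and 5.42 to 6.46 for RAB34. Their own log2 changes, not set against the rest of the gene, were 0.82, 0.69 and 0.84. In siNELF-A, -C and -E cells no RAB probe set was called, where 2.16%, 5.02% and 1.37% of all genes had one, and 18, 38 and 24 of 440 had an unadjusted p below 0.05. The number of RAB genes called was 0 without control replicate 2 or 3, 1 without siNELF-C replicate 3 or any 1 siNELF-E array, 3 other genes without siNELF-B replicate 1, 31 without siNELF-B replicate 2 and 13 without siNELF-B replicate 3. The share of all genes called in those fits is not given here, so these counts are not read as particular to RAB genes.

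The proteins that load, deliver, switch off or read RAB proteins were examined through 4 textbook lists with 90 measured genes. In the average contrast 1 was called higher and 3 lower (4.44%, beside the 4.81% of all clusters). In siNELF-A, -B, -C and -E cells 7.78%, 3.33%, 6.67% and 8.89% of the 90 were called, against the 3.32%, 4.39%, 6.22% and 5.48% of all clusters. SYTL2 and EXPH5, both effectors that bind RAB27 proteins, were called in opposite directions. SYTL2 ranged from 4.25 to 4.52 on the siNELF-E arrays, 3.68 to 3.88 on the siNELF-C arrays, 2.73 to 3.01 on the siNELF-B arrays, 3.35 to 3.46 on the siNELF-A arrays, and 2.63 to 2.86 on the control arrays. All groups but siNELF-B lay above the controls, and only the siNELF-E arrays reached the 40th percentile of 3.901. SYTL2 was called higher in siNELF-E cells (adjusted p = 9.2e-06, limma), and no size is given because the control arrays lay below that percentile.

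EXPH5 ranged from 3.63 to 4.02 on the siNELF-A arrays, 4.35 to 6.13 on the siNELF-B arrays, 5.61 to 5.86 on the siNELF-C arrays, 5.49 to 5.52 on the siNELF-E arrays and 6.09 to 6.47 on the control arrays. Only siNELF-B reached the control range. EXPH5 fell by 2.47 log2 units in siNELF-A cells (SE 0.324, adjusted p = 0.0012). MLPH and SYTL4, 2 further RAB27 effectors, picked with MYO5A, HPS1, TBC1D4 and PDE6D after their values were seen, fell in siNELF-A cells by 0.64 and 0.77 log2 units (adjusted p = 0.0423 and 0.0194), and MYO5A, the motor that RAB27A engages through MLPH, fell in siNELF-E cells by 1.21 (adjusted p = 0.0356).

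MICALL1, an effector on recycling tubules, fell by 0.92 log2 units in siNELF-E cells (adjusted p = 0.00206) and by 0.72 in siNELF-A cells (adjusted p = 0.0171). Among the 26 exchange factors, DENND5A fell in siNELF-A cells by 1.30 (adjusted p = 0.0176) and in siNELF-B cells by 1.11 (adjusted p = 0.0397), and was the only one called in the average contrast (-0.78, adjusted p = 0.0457). HPS1, part of the exchange factor for RAB32 and RAB38, rose by 0.90 in siNELF-E cells (adjusted p = 0.000804). TRAPPC1 and TRAPPC4, subunits of the complex that activates RAB1, were the 2 exchange-factor genes with the highest mean level that were not called in the average contrast, at 0.03 and -0.47. TRAPPC4 fell by 1.03 in siNELF-C cells (adjusted p = 0.0439).

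None of the 22 GTPase-activating protein genes was called in the average contrast. TBC1D4, which acts on RAB10, rose by 0.70 in siNELF-E cells (adjusted p = 0.0447), and the 2 brightest, RABGAP1 and TBC1D15, changed by -0.18 and -0.03 on average. Of the 6 measured genes of prenylation and delivery none was called on average either. ICMT, which methylates prenylated proteins, and RABAC1 were the brightest and changed by -0.43 and -0.33. PDE6D, a carrier of prenylated proteins, fell by 1.48 in siNELF-E cells (adjusted p = 0.0348). The effectors with the highest level that were not called on average, MLPH and PLIN3, changed by -0.20 and -0.22. Without siNELF-B replicate 2, 18 of the 90 regulators and 13.1% of all clusters were called in the average contrast, and without siNELF-B replicate 3, 10 regulators and 6.77% of all clusters. Without control replicate 1 or 3, 1 and 2 regulators were called, and 1.83% and 1.33% of all clusters.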

How the data were processed

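Bulk RNA of 15 T47D samples was measured on Affymetrix exon arrays. Per the labels, the deposited values are log2 robust multi-array average values of core exons, made by the authors with the ArrayAssist software on genome build hg18. Its version is not given in the sources used here. Deposited gene-level values of 22011 transcript clusters and exon-level values of 287329 probe sets were used as they stand. Symbols came from the supplied platform annotation, updated through a RefSeq table, and 14432 clusters carried 1 symbol.

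In R 4.3.3 with limma 3.58.1, 1 mean per siRNA group was fitted to all 15 arrays (lmFit, eBayes), with Benjamini-Hochberg adjustment over all clusters within each of 11 contrasts. Exon usage was tested with diffSplice, for probe sets whose mean reached the 25th percentile, in genes with at least 3. Target genes were measured as the median of their probe sets. Scripts were tested on simulated data. Groups came from the labels. The number of arrays limits precision.

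The members, lists, tests and alternatives were chosen with earlier results of these data known. Members called against control were named with all 15 values, then the 4 highest in mean level, paralogs of called members, and, from each list of regulators, up to 4 called in the average contrast and the 2 brightest not called. Alternatives changed the scaling, filters, covariates, samples fitted and arrays included. Same-numbered arrays did not deviate together (correlations of -0.297 to 0.203), so no pairing was assumed.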

Additional observations from a re-analysis of the deposited data

Results flagged for a closer look

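The RAB genes below differed between 2 knockdowns by a test of the difference itself (limma over all clusters and all 15 arrays, adjusted p below 0.05 and at least 1.5-fold). Log2 differences are first minus second group. Between siNELF-E and siNELF-C cells they were 1.33 for RAB4A, 0.70 for RAB33B, 1.07 for RAB26, 0.62 for RAB5C, 1.49 for RAB27B and 1.03 for RAB22A. Between siNELF-E and siNELF-B cells the secretory genes RAB26, RAB27B and RAB10 differed by 1.28, 1.33 and 1.06. The endosomal genes RAB4A, RAB17 and RAB21 differed there by 1.39, 0.87 and 1.45. RAB29, RAB7A, RAB24 and RAB9A, of late endosomes, lysosomes and autophagy, differed by 1.31, 1.00, 1.01 and 1.21, and the Golgi genes RAB33B and RAB2B by 0.99 and 1.40. Between siNELF-E and siNELF-A cells RAB33B, RAB26 and RAB27B differed by 1.25, 1.22 and 1.34. RAB11B differed by 1.47 between siNELF-C and siNELF-A cells. RAB24 and RAB32 differed by 0.87 and 2 between siNELF-C and siNELF-B cells, and RAB24 and RAB9A by -0.87 and -1.26 between siNELF-B and siNELF-A cells.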

How the results depend on the processing

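For 42 named RAB results, each picked because it was called, 768 repeats under other settings kept the call, 279 lost it and none changed direction. Leaving out an array outside the groups compared left a log2 change as it was, so direction could not move in those repeats. RAB26 in siNELF-E cells was called in 25 of 25. The counts of RAB clusters called moved more. Most are given here without the share of all clusters or genes called in the same fit, so they are not read as particular to RAB genes. In siNELF-A, -B, -C and -E cells they were 2, 5, 3 and 3 as reported, 3, 3, 8 and 8 with quantile normalization, 1, 4, 3 and 8 with arrays centred on medians, 3, 2, 8 and 10 with 75th percentiles, 2, 8, 3 and 3 without clusters below the 40th percentile, 4, 1, 9 and 11 with the interquartile range as covariate, 6, 0, 10 and 11 with only the 2 groups fitted (8 in siNELF-B at an unadjusted p below 0.05), 0, 4, 0 and 3 with medians of probe sets (7 in siNELF-A and 13 in siNELF-C unadjusted), and 8, 16, 9 and 10 without siNELF-B replicates 2 and 3. Without those 2 arrays, 8 clusters were called in the average contrast, 1 in all 4 knockdowns (RAB27A) and 33 between knockdowns, 14 regulators in the average contrast, and 27 genes for exon usage. The interquartile range covariate gave 5 in the average contrast and 2 regulators, and quantile normalization 2 regulators. With the replicate block the counts were 1, 2, 2 and 3 in the single knockdowns, and 3 of 30 same-numbered pairs of arrays correlated above 0.1, against 9 of 60 pairs with different numbers. Leaving out 1 array gave 0 to 7 in siNELF-A, 1 to 27 in siNELF-B, 0 to 7 in siNELF-C, 2 to 8 in siNELF-E, 1 to 12 on average, 0 to 1 in all 4, 7 to 35 between knockdowns, 1 to 18 regulators and 0 to 31 genes for exon usage. The causes were not tested. With 3 technical repeats per group and no background signal measured here, small changes and dim clusters are the least certain.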
